A study of Mus musculus with 8 samples.

Results

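The 7 genes described here, Ccr7, S1pr1, Klf2, Cxcr5, Cxcr4, Itgae and Cd69, direct where lymphocytes go and whether they stay in a tissue. They were chosen by symbol out of 32286 gene features, and each symbol matched 1 row in the matrices. The tissue was lung adenocarcinoma of KPC mice, in which lentivirus given into the airway starts the tumours. The virus also carried CRISPR activation aimed at tumour cells, with guide RNAs (dRNAs) against Tomato in the group labelled Con and against Malat1, a nuclear long noncoding RNA, in the group labelled mA1. The largest tumours, 4 of each group, were taken 16 weeks after initiation, dissociated with collagenase IV and DNase at body temperature, cleared of dead cells and profiled as single cells in 2 libraries a group, with 2 hashtag antibodies marking the tumours of a library. A tumour is here the cells of 1 library that carry 1 hashtag, named Con 1-1 for library 1 and hashtag 1. Whether these tumours grew in separate mice is not stated, so p-values measure only the spread between these samples.

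Naive T cells and B cells circulate between blood and lymph nodes. CCR7 is the receptor for the chemokines CCL19 and CCL21 and brings naive T cells and mature dendritic cells into the T zone of a lymph node, while CXCR5, the receptor for CXCL13, brings B cells into follicles. S1PR1 senses sphingosine 1-phosphate, which is high in blood and lymph, and lets a lymphocyte leave a tissue; KLF2 is the transcription factor that drives S1pr1 transcription. CD69, a membrane protein induced by activation, binds S1PR1 and takes it off the cell surface, which holds the cell in place. ITGAE (CD103) pairs with integrin beta 7 and binds E-cadherin on epithelium. CXCR4, the receptor for CXCL12, is used by B cells, neutrophils and plasma cells, among others.

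In GRCm38 (mm10) all 7 are annotated as protein-coding. Ccr7 lies on chromosome 11 from 99144199 to 99155077 and Itgae on the same chromosome from 73090505 to 73147449. S1pr1 lies on chromosome 3 (115710433 to 115715055), Klf2 on chromosome 8 (72319062 to 72321654), Cxcr5 on chromosome 9 (44511787 to 44526444), Cxcr4 on chromosome 1 (128588199 to 128592299) and Cd69 on chromosome 6 (129267324 to 129275375). The RefSeq promoters of Klf2, the factor upstream of S1pr1, and of Cxcr4, the member with the most frequent low values in mA1, are shown for reference. The 250 bases before each start are printed from GRCm38.p6, with capitals marking CACCC (the core bound by KLF factors) and GGGCGG (the GC box), either strand.
Klf2, chr8:72318812-72319061, plus strand: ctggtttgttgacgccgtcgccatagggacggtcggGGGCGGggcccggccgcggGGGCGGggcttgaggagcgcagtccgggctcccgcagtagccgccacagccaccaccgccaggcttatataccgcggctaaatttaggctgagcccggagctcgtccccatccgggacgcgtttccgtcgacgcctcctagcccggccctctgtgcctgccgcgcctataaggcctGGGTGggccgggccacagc
Cxcr4, chr1:128592300-128592549, minus strand: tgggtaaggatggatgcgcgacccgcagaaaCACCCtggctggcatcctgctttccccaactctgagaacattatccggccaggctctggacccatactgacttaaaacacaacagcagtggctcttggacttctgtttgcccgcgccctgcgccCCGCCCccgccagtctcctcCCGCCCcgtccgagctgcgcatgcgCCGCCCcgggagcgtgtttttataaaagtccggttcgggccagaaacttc
Klf2 held 2 GC boxes and 1 CACCC core, and Cxcr4 held 3 GC boxes and 1 CACCC core. Of 27025 promoters of that length, 32.9% held a GC box and 51.3% held a CACCC core, so a match describes the sequence and no more.

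The files held 4939 to 10168 barcodes and 48319272 to 74996867 UMIs a library, and 23996 cells were kept, 1430 to 4272 a tumour, with median depths from 3914 to 8693 UMIs. Cells were clustered with the 7 members left out of the genes used, and named from markers that included none of them. There were 10464 cells in 15 lymphocyte and dendritic classes. A T cell cluster led by 5830411N06Rik, Tmem176b and Blk and another led by Ifitm3, Itga1 and Ifng stayed unnamed and are called T cell cluster 2 and T cell cluster 13. The leading genes of T cell cluster 2 also held Trgv2 and Tcrg-C2, both T cell receptor gamma genes. Its Trdc was 226 CPM, against 2820 CPM in gamma-delta T-like cells, and its Cd4 and Cd8b1 were 3 and 26 CPM. Whether it holds gamma-delta T cells was not tested. Malat1, the activated gene, was 37780 and 25897 CPM in tumour-like epithelial cells of the Con libraries and 24330 and 39967 CPM in those of the mA1 libraries, so the groups overlapped. Xist was 1007 CPM in naive CD4 T-like cells of Con library 2 and at most 8.19 CPM in those of the other libraries. Of all cells, 897 had a barcode that was also kept in another library, 55 of them in the 15 classes.

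**Figure D1:**
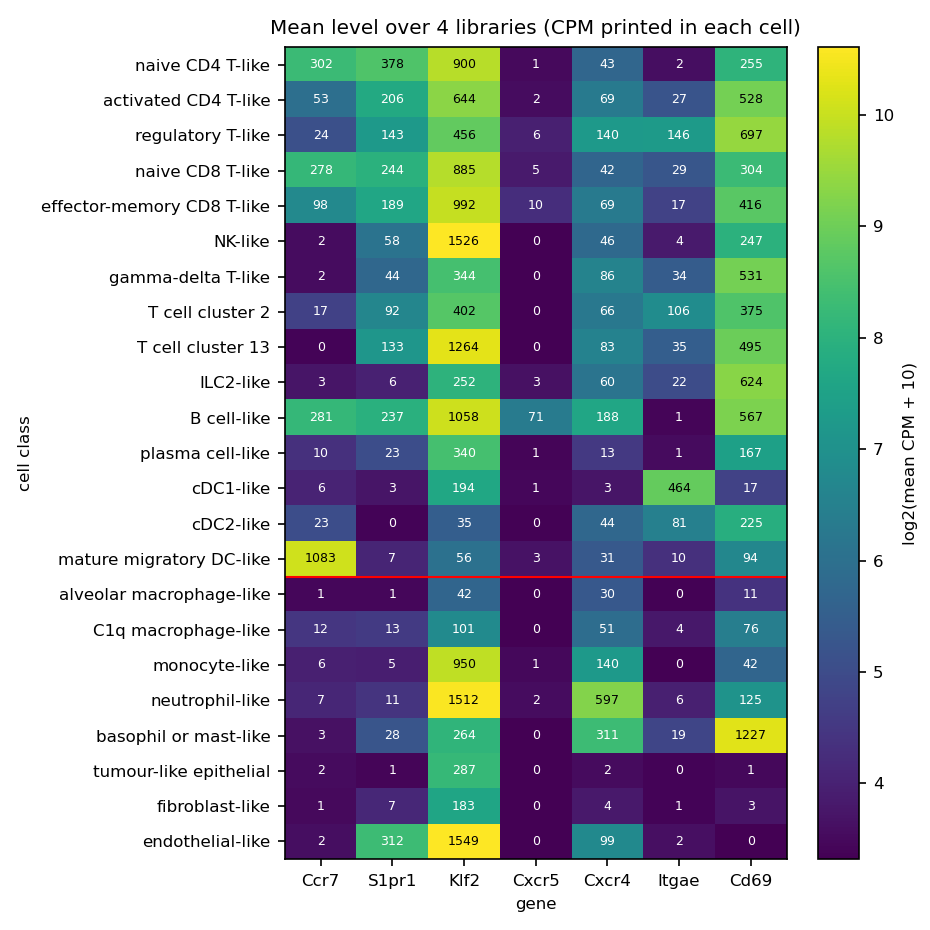
Level of each gene (columns) in each of 23 cell classes (rows), as the mean over 4 libraries of CPM (UMIs of the gene scaled to 1000000 UMIs of the class), printed in each cell and coloured by log2(CPM + 10). Classes above the red line are the 15 lymphocyte and dendritic classes; Ccr7 is highest in mature migratory DC-like cells at 1083 CPM and Itgae in cDC1-like cells at 464 CPM.

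Levels are CPM, the UMIs of a gene scaled to 1000000 UMIs of that class and tumour, and means run over tumours with at least 20 cells of the class. Ccr7 was highest in mature migratory DC-like cells, the dendritic cells that travel to lymph nodes, at 1017 ± 217 CPM (SD, n = 3). Naive CD4 T-like cells at 299.9 ± 37.7, B cell-like cells at 285 ± 47.5 and naive CD8 T-like cells at 276 ± 24.6 CPM (n = 8 each) followed, and their ranges over tumours overlapped. Effector-memory CD8 T-like cells had 94.5 ± 40.0 CPM of Ccr7 and activated CD4 T-like cells 48.1 ± 22.3 CPM. In NK-like cells Ccr7 was 1.60 ± 1.86 CPM, and in the 5 tumours with enough gamma-delta T-like cells no Ccr7 UMI was counted. S1pr1 was highest in naive CD4 T-like cells, at 374 ± 46.6 CPM, above naive CD8 T-like cells at 254 ± 37.2 CPM in 8 of 8 tumours. B cell-like cells had 236 ± 40.4 CPM of S1pr1. The dendritic classes were near 0 for S1pr1, from 0.584 CPM in cDC1-like to 8.82 CPM in mature migratory DC-like cells, beside 312 CPM in the 35 endothelial-like cells, a type known to express it.

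Klf2 did not follow S1pr1 across the classes. It was highest in NK-like cells, at 1519 ± 122 CPM, where S1pr1 was 59.5 ± 21.6 CPM. Klf2 was 1234 ± 306 CPM (n = 6) in T cell cluster 13, 1049 ± 149 CPM in B cell-like cells and 988 ± 186 CPM in effector-memory CD8 T-like cells, above its 899 ± 75.8 CPM in naive CD4 T-like cells. Neutrophil-like cells had 1512 CPM of Klf2 and 11.4 CPM of S1pr1 as means over the 4 libraries. NK-like cells instead had 179 CPM of S1pr5, a related receptor known for the exit of NK cells from tissue, against 25.6 CPM in effector-memory CD8 T-like cells, the next class.

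Cxcr5 was a B cell gene in these tumours. B cell-like cells had 69.5 ± 14.3 CPM (lowest tumour 49.5, highest 91.0, n = 8), and the next class, effector-memory CD8 T-like, had 8.76 ± 5.87 CPM, lower in 8 of 8 tumours. Its ligand Cxcl13 was 50.2 CPM in C1q macrophage-like cells as a mean over the 4 libraries, but ran from 0 to 117 CPM. Cxcr4 was highest among lymphocytes in B cell-like cells, at 186 ± 61.0 CPM, then in regulatory T-like cells, at 129 ± 49.2 CPM (n = 3). Neutrophil-like cells, at 597 CPM over the libraries, were above both. In plasma cell-like cells, with a median of 17466 UMIs a cell against 2318 in B cell-like cells, Cxcr4 was 13.3 ± 6.33 CPM (n = 6). Its ligand Cxcl12 was found in endothelial-like cells, at 621 CPM (94.9 to 1259 over the libraries), and fibroblast-like cells, at 113 CPM, and was at most 0.5 CPM in every other class. Ccl19 and Ccl21a were not analysed here.

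Itgae was highest in cDC1-like cells, at 514 ± 60.5 CPM (n = 4), a dendritic type known to carry CD103. Among lymphocytes it was 169 ± 42.6 CPM (n = 3) in regulatory T-like cells and 108 ± 59.7 CPM (n = 8) in T cell cluster 2. Itgb7, its partner chain, was 579 and 552 CPM in those 2 classes. By library, Itgae in regulatory T-like cells was 187 and 176 CPM in Con and 122 and 97.7 CPM in mA1. These libraries held 19 to 49 cells of the class, too few for a test. Naive CD8 T-like cells had 29.6 ± 10.7 CPM of Itgae and naive CD4 T-like cells 1.78 ± 2.13 CPM. Cdh1, which encodes E-cadherin, was 234 CPM in tumour-like epithelial and 203 CPM in cDC2-like cells. Cd69 was above 250 CPM in every T, NK and B class, from 251 ± 62.3 CPM in NK-like to 619 ± 207 CPM (n = 3) in regulatory T-like cells, and was 857 ± 348 CPM in ILC2-like cells in the 2 tumours with enough of them, both of Con library 2. Over whole libraries, ILC2-like cells had 1012 and 757 CPM of Cd69 in Con and 422 and 307 CPM in mA1, a mean of 624 CPM, below the 697 CPM of regulatory T-like cells. The ILC2-like values came from 18 to 58 cells a library, too few for a test. By tumour the groups overlapped, as Con 1-1, with 6 cells, was at 218 CPM and the mA1 tumours were at 264 to 493 CPM. B cell-like cells, at 571 ± 88.5 CPM, were as high as activated CD4 T-like cells, at 538 ± 75.2 CPM, within their spread.

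Neighbours in these orders were compared by exact two-sided sign-flip permutation over tumours, which allows no p under 0.00781 with 8 tumours. Of 98 neighbouring pairs over the 7 genes, 93 could be tested, 7 had an unadjusted p under 0.05 and 0 passed after Benjamini-Hochberg adjustment (lowest adjusted p = 0.182). At that floor a few pairs could not have passed over 93 tests, so the adjusted result does not decide the order. The order itself was taken from the means of the same tumours. The steps that were seen in 8 of 8 tumours were naive CD8 above effector-memory CD8 and effector-memory CD8 above activated CD4 for Ccr7, naive CD4 above naive CD8 for S1pr1, and B cell above effector-memory CD8 for Cxcr5.

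**Figure D2:**
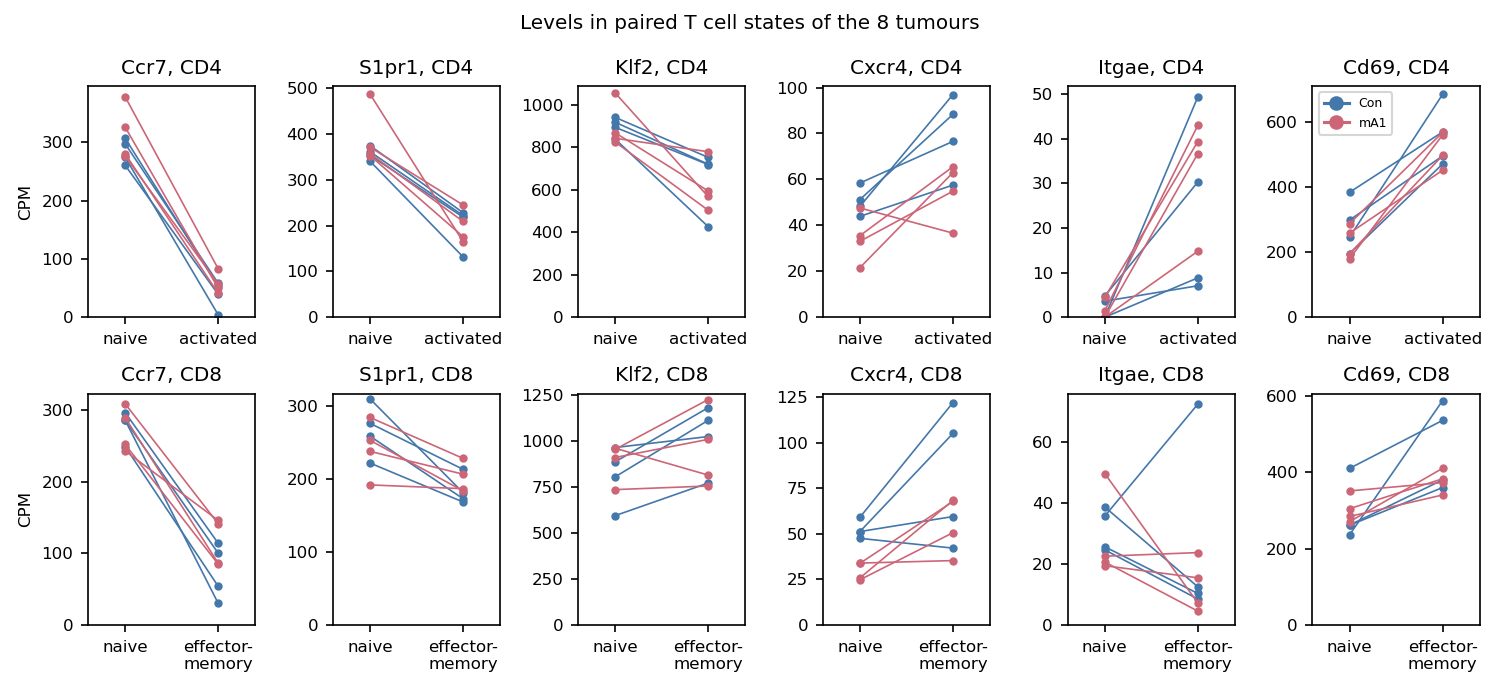
CPM of 6 genes (y axes start at 0) in the naive and the activated or effector-memory state of CD4 and CD8 T-like cells; each line joins the 2 states of 1 tumour, blue for Con and red for mA1. Ccr7 and S1pr1 are lower and Cd69 is higher outside the naive state in all 8 tumours of both lineages, while Klf2 goes down in CD4 cells and not in CD8 cells.

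The recirculating and the resident side of the group separated most plainly between the states of CD4 T cells. From naive to activated CD4 T-like cells, Ccr7 was lower by 6.23-fold in mean CPM, and S1pr1 went from 374 to 199 CPM, lower in 8 of 8 tumours for both. Klf2 went from 899 to 634 CPM, also lower in 8 of 8 tumours. Cd69 went from 256 ± 68.2 to 538 ± 75.2 CPM, and Itgae from 1.78 to 28.6 ± 16.3 CPM, both higher in 8 of 8 tumours. Cxcr4 was 42.4 ± 11.8 CPM in naive and 67.4 ± 19.3 CPM in activated cells, and mA1 2-2 was the tumour in which it was lower.

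In CD8 T cells the same genes did not all move. Ccr7 went from 276 to 94.5 CPM and S1pr1 from 254 to 192 CPM between naive and effector-memory CD8 T-like cells, lower in 8 of 8 tumours for both, and Cd69 went from 298 to 421 CPM, higher in 8 of 8. Klf2 was 852 ± 132 CPM in naive and 988 ± 186 CPM in effector-memory cells and was higher in the naive state in 1 of 8 tumours. Itgae was 29.6 CPM in naive and 19.4 ± 22.2 CPM in effector-memory cells, higher in the naive state in 6 of 8 tumours, and Con 1-1, at 72.4 CPM from 12 UMIs, lay far above the other effector-memory values of 4.56 to 23.7 CPM. The states were named from other T cell genes, so these are descriptions of the classes, with no test.

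As RNA only, with no cell movement measured, an egress gene and a retention gene were compared by the ratio of S1pr1 to Cd69 UMIs. It was 1.58 ± 0.567 in naive CD4 T-like, 0.879 ± 0.211 in naive CD8 T-like, 0.471 ± 0.0934 in effector-memory CD8 T-like and 0.382 ± 0.108 in activated CD4 T-like cells (SD, n = 8 each). B cell-like cells were at 0.418 ± 0.0705, NK-like cells at 0.254 ± 0.122 and T cell cluster 2 at 0.245 ± 0.129 (n = 8 each). The 13 immediate early and dissociation genes, which rise when tissue is handled, were also higher outside the naive state. Their summed Con means were 4309 and 6414 CPM in naive and activated CD4, and 2677 and 3807 CPM in naive and effector-memory CD8 T-like cells. Their part in the ratio was not tested. Gamma-delta T-like cells had the lowest T cell value, 0.0994 ± 0.0228 (n = 5). Cxcr6, a chemokine receptor of resident T cells from the residency list, was 1129 CPM in gamma-delta T-like cells and 835 CPM in T cell cluster 2. Cxcr6 alone does not stand for that list. Itgae in gamma-delta T-like cells was low and uneven, at a mean of 33.8 CPM and from 0 to 63.7 CPM over the libraries.

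Cd69 and S1pr1 were also compared between single cells of a class. Each cell was thinned to 1000 UMIs, and the share with a UMI of 1 member was compared between cells with and without a UMI of another, in each tumour with 15 or more cells on both sides. Of activated CD4 T-like cells with Cd69, 15.5 ± 7.07% had S1pr1, against 16.9 ± 4.85% of those without (n = 8 tumours, lower in 4 of 8); unthinned, the means were 40.6% and 44.4%. B cell-like cells with Cd69 had S1pr1 in 22.4 ± 6.69% and those without in 22.2 ± 2.76% of cells. In naive CD4 T-like cells it was 26.2 ± 6.55% with and 28.5 ± 2.61% without Cd69 (lower in 5 of 6 tumours), in NK-like cells 3.82 ± 4.44% and 6.12 ± 1.13% (3 of 6) and in effector-memory CD8 T-like cells 16.3 ± 9.69% and 16.7 ± 4.35% (2 of 7). In alveolar macrophage-like cells, which should lack S1pr1, 0.1% of thinned cells had a UMI of it, with a median depth of 12460 UMIs against 3634 in activated CD4 T-like cells. Of 37 such comparisons, 0 had an unadjusted p under 0.05 in the exact sign-flip permutation test (lowest p = 0.0625), and 0 passed after adjustment, which a single pair could not have done over 37 tests. This way of comparing cells was added after the data were seen.

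The genes whose pattern over the 23 classes was most like each member were found by Pearson's r of the mean log2(CPM + 10), given as a description since classes share libraries. S1pr1 was most like Foxo1 (r = 0.935), A930005H10Rik (0.899) and Gimap6 (0.890). Cxcr5 was most like Ighd (0.939), Pax5 (0.930) and Cr2 (0.929), all B cell genes, and Cd69 most like Ltb (0.904), Rasal3 (0.886) and Rac2 (0.881). Cxcr4 was most like 2310001H17Rik (0.873), Nfkbid (0.837) and Ppp1r15a (0.836). The closest genes were less alike for Ccr7 (Arl5c, 0.743; Rassf2, 0.693; Il21r, 0.690), Klf2 (Clp1, 0.739; Rasa3, 0.737; Dusp2, 0.729) and Itgae (Lrba, 0.744; F2rl2, 0.740).

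The mA1 and Con groups were compared class by class, by the dRNA the tumours were given; as stated above, Malat1 itself overlapped between the groups in tumour-like epithelial cells. In 13 of the 15 classes there were enough cells, 7 fitted over the 8 tumours and 6 over the 4 libraries. With edgeR's quasi-likelihood test, 0 of 62 tests of a member had an adjusted p under 0.05, and 14 had an unadjusted p under 0.05; with DESeq2 0 of them passed either. Over all genes of those classes 0.0775% of tests passed the adjusted and 6.36% the unadjusted threshold. In single classes the share past the unadjusted threshold was 8.52% in naive CD4, 8.96% in activated CD4, 10.4% in naive CD8, 8.58% in effector-memory CD8, 9.61% in NK-like, 7.14% in T cell cluster 2 and 8.31% in B cell-like cells. The share past the adjusted threshold was 0.0724% in activated CD4, 0.0304% in naive CD8 and 0.0274% in effector-memory CD8 T-like cells. Members too low for a test made up the other 29 pairs of gene and class.

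**Figure D3:**
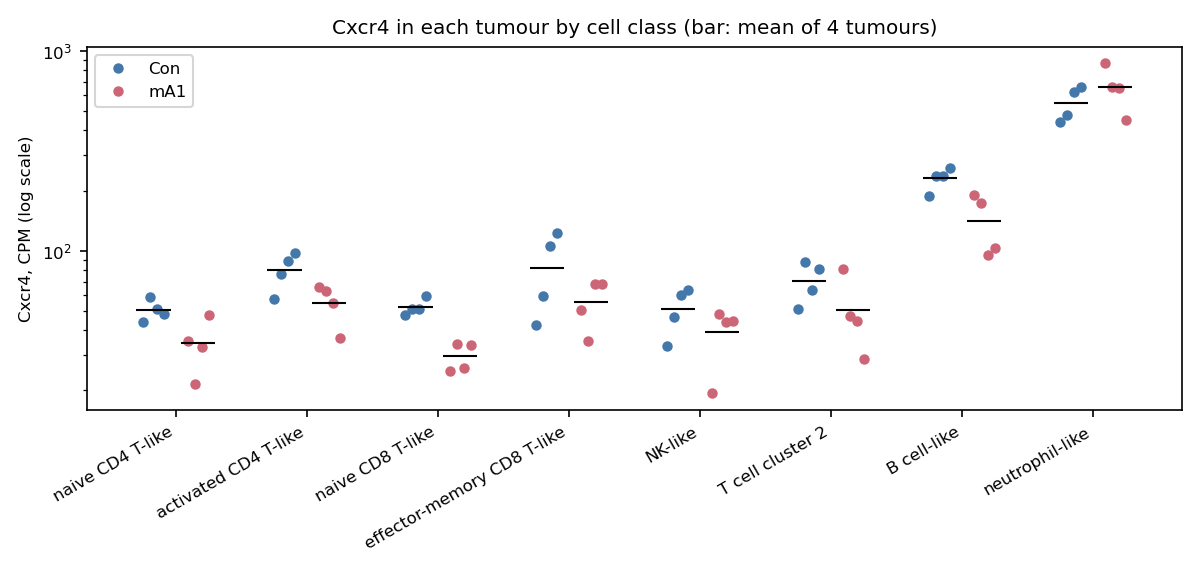
Cxcr4 in CPM (log axis) in each tumour, for the 7 lymphocyte classes fitted over tumours and for neutrophil-like cells; points are tumours, blue for Con and red for mA1, and bars are means of 4 tumours. The mA1 mean is below the Con mean in the 7 lymphocyte classes and not in neutrophil-like cells, and only in naive CD8 T-like cells do the groups not overlap.

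Cxcr4 had the most frequent low values in mA1. Its log2 fold change was below 0 in 7 of the 7 classes fitted over tumours and in 11 of all 12 tested, with an unadjusted p under 0.05 in 6 of those 7. In B cell-like cells Cxcr4 was 188, 238, 238 and 259 CPM in the Con tumours and 191, 173, 94.7 and 103 CPM in the mA1 tumours. The mA1 library 2 tumours were lowest, and mA1 1-1 was above Con 1-1, so the groups overlapped; the log2 fold change was -0.61 ± 0.16 (SE) with an edgeR adjusted p of 0.195, where 0.0165% of genes passed. In naive CD8 T-like cells it was 47.6, 51.3, 51.3 and 59.1 CPM in Con and 24.8, 34.0, 25.8 and 33.8 CPM in mA1, on 4 to 53 UMIs a tumour. Those groups did not overlap, as for 5.17% of genes lower in mA1 in that class, and the log2 fold change was -0.67 ± 0.27 with an edgeR adjusted p of 0.355.

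In the other classes fitted over tumours, the Cxcr4 log2 fold change was -0.59 ± 0.24 in naive CD4, -0.58 ± 0.19 in activated CD4, -0.66 ± 0.25 in effector-memory CD8, -0.52 ± 0.24 in NK-like cells and -0.39 ± 0.30 in T cell cluster 2, with edgeR adjusted p from 0.315 to 0.844. In neutrophil-like cells, where Cxcr4 is highest, it was 0.21 ± 0.22 (adjusted p = 0.997). Classes of a tumour share its library, so these are not separate observations. Without Con library 2, which stood apart in Xist, the Cxcr4 log2 fold change was -0.55 in B cell-like, -0.68 in naive CD8, -0.75 in naive CD4, -0.33 in activated CD4, -0.19 in NK-like and -0.01 in effector-memory CD8 T-like cells. In B cell-like cells it was -1.14 without mA1 library 1 (edgeR adjusted p = 8.4e-05) and -0.32 without mA1 library 2. Differences between classes in the effect were tested for each pair of 8 classes and each member, 196 tests in all by exact permutation of the tumours, which allows no p under 0.0286, and 0 passed after adjustment (lowest adjusted p = 0.862). At that floor a few differences could not have passed; 6 reached it, 4 of them for Cxcr4 in B cell-like, naive CD8, activated CD4 T-like cells and T cell cluster 2 against neutrophil-like cells, and 2 for Klf2 in T cell cluster 2 against naive CD4 T-like and NK-like cells. The 13 immediate early and dissociation genes, which rise when tissue is handled, summed to 4614 to 6936 CPM in Con and 3994 to 6189 CPM in mA1 B cell-like cells, with all 13 detected. In naive CD8 T-like cells the sums were 2284 to 3034 CPM in Con and 2429 to 3991 CPM in mA1. Summed neutrophil markers in B cell-like cells, 6 of 6 detected, were 28.0 to 49.5 CPM in Con and 9.78 to 33.2 CPM in mA1. The part of these lists in the Cxcr4 values was not tested.

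In T cell cluster 2, Itgae was 102, 80.9, 59.6 and 40.7 CPM in its Con tumours and 175, 208, 62.3 and 134 CPM in its mA1 tumours. Of the mA1 values only that of mA1 2-1, from 7 UMIs, lay within the Con range, and the log2 fold change was 1.20 ± 0.29 (edgeR adjusted p = 0.120; 0.179% of genes passed). Klf2 was 307, 308, 329 and 203 CPM in Con and 409, 474, 401 and 621 CPM in mA1. The groups did not overlap, as for 2.19% of genes higher in mA1 in that cluster, and the log2 fold change was 0.70 ± 0.17 with an edgeR adjusted p of 0.109. Without Con library 2 the values were 0.84 for Itgae and 0.61 for Klf2, and without mA1 library 1 they were 0.52 and 0.82. S1pr1 was 0.59 ± 0.29 on the same scale (edgeR adjusted p = 0.712), and -0.06 without mA1 library 1.

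**Figure D4:**
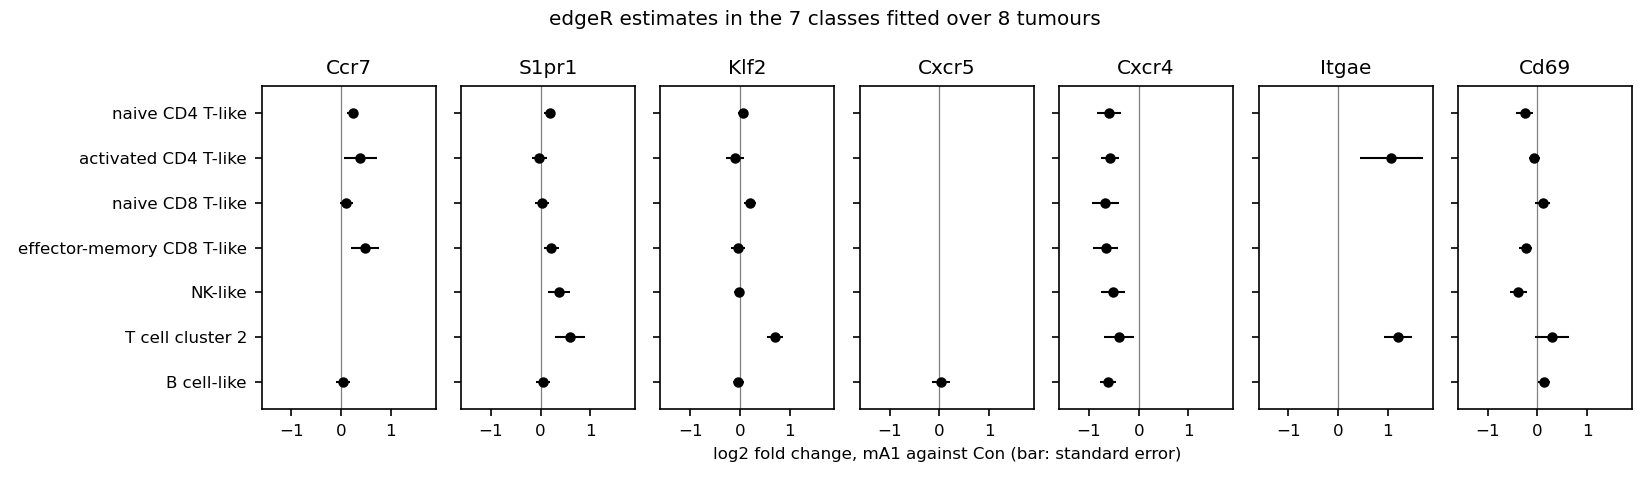
Log2 fold change of mA1 against Con with its standard error for each member (panels) in the 7 classes fitted over 8 tumours (rows), from edgeR; missing points were too low to test. Cxcr4 lies below 0 in all 7 rows, Itgae and Klf2 in T cell cluster 2 lie farthest above 0 relative to their errors, and 0 of the points passed adjustment.

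The value of Itgae in activated CD4 T-like cells depended on which Con library was used. It was 49.3, 30.3, 7.04 and 8.81 CPM in the Con tumours and 39.3, 42.9, 14.8 and 36.6 CPM in the mA1 tumours, on 6 to 30 UMIs a tumour. The Con library 1 tumours lay within or above the mA1 range and the Con library 2 tumours below it. The log2 fold change was 1.07 ± 0.63 (edgeR adjusted p = 0.689), 2.17 without Con library 1 and -0.11 without Con library 2. Without Con library 1, the only Con library was Con library 2, which stood apart in Xist.

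Ccr7 had a log2 fold change of 0.23 ± 0.11 in naive CD4 T-like cells (edgeR adjusted p = 0.560; 0.204% of genes passed), 0.04 ± 0.14 in B cell-like cells, 0.49 ± 0.28 in effector-memory CD8 and 0.39 ± 0.34 in activated CD4 T-like cells, and was above 0 in 5 of 5 classes fitted over tumours. In activated CD4 T-like cells Con 1-1, with 1 UMI, was lowest at 4.11 CPM, and the other Con tumours were 39.2 to 58.2 CPM. S1pr1 ranged from -0.02 ± 0.15 in activated CD4 T-like to 0.59 in T cell cluster 2 among those classes. Cxcr5 in B cell-like cells was 0.03 ± 0.17 (adjusted p = 0.985). Cd69 was -0.38 ± 0.16 in NK-like cells (adjusted p = 0.450; 0.327% of genes passed). There it was 230, 256, 278 and 338 CPM in Con and 195, 145, 314 and 249 CPM in mA1. In the same NK-like cells 3 of 12 tested immediate early genes fell, namely Fos by 0.85, Egr1 by 1.11 and Btg2 by 0.53 on the log2 scale, and all 12 were below 0. Their summed level was 3896 to 5507 CPM in Con and 2427 to 5127 CPM in mA1; their part in the Cd69 value was not tested.

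Dendritic classes could be fitted over 4 libraries only. The cDC2-like cluster was led by Cxcl2, Mmp12, Il1r2 and Clec4n, with Il1b and Ptgs2, and by none of the markers fixed for its name. It was named from Mgl2 at 1689 and Cd209a at 701 CPM, against 282 and 16.4 CPM in cDC1-like cells. Clec10a, Sirpa and Itgam were also above cDC1-like cells, but Flt3 was below, at 42.1 against 155 CPM. Sirpa and Itgam, at 115 and 106 CPM, were higher in neutrophil-like cells, at 229 and 309 CPM. An unnamed dendritic cluster had 810 CPM of Cd209a. In standard deviations over the dendritic clusters, the cDC2-like cluster averaged 1.4 for neutrophil markers, 1.1 for immediate early genes and 0.8 for cDC2 markers. Its S100a8 was 46.8 CPM beside 40887 CPM in neutrophil-like cells. In cDC2-like cells Ccr7 was 26.2 and 51.8 CPM in Con and 13.7 and 0 CPM in mA1 libraries, Cxcr4 was 45.5 and 75.9 against 36.5 and 17.9 CPM, and Klf2 was 43.7 and 52.9 against 18.3 and 26.9 CPM. Non-overlap of 2 against 2 libraries, lower in mA1, was found for 14.7% of genes there. An unadjusted edgeR p under 0.05, in either direction, was found for 3.5%, and edgeR adjusted p was 1.00 for each of Ccr7, Cxcr4 and Klf2. Most of the Con 2 value of Ccr7 came from tumour Con 2-2, with 43 UMIs in 21 cells, against 2 UMIs in Con 2-1. In cDC1-like cells Itgae was 536 and 525 CPM in Con and 449 and 347 CPM in mA1 libraries (log2 fold change -0.36 ± 0.16, edgeR adjusted p = 0.987). The libraries did not overlap, as for 20% of genes lower in mA1 there, and 4.94% of genes had an unadjusted p under 0.05. In mature migratory DC-like cells Ccr7 was 1003 and 1037 CPM in Con and 1221 and 1072 CPM in mA1 libraries (0.21 ± 0.15, edgeR adjusted p = 0.999). Cd69 there was 101 and 25.8 against 120 and 129 CPM (0.95 ± 0.51, edgeR adjusted p = 0.999). Without Con library 1, which leaves Con library 2 alone in Con, the Cd69 log2 fold change was 2.30. In that class 13.7% of genes were higher in mA1 without overlap. In gamma-delta T-like cells Cd69 was 460 and 504 CPM in Con and 620 and 540 CPM in mA1 libraries, without overlap as for 14.1% of genes higher in mA1.

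Partner genes of the same pathways were counted by list. Of the 14 recirculation and naive genes, which hold Il7r, Lef1 and Tcf7, all 14 could be tested in naive CD4 T-like cells, 0 rose and 0 fell, and their median log2 fold change was -0.03, beside 0.01 over all genes. Of 18 residency genes, 13 could be tested in activated CD4 T-like cells, with 0 rising, 0 falling and a median of -0.02. In T cell cluster 2 it was 7 of 18, with 0 called and a median of 0.07. In gamma-delta T-like cells 9 of 9 tested residency genes were above 0, with a median of 0.36 beside 0.00 over all genes, and 0 were called. The genes of sphingosine 1-phosphate supply and of receptor desensitisation had 0 calls in the 13 classes. Spns2, the exporter of sphingosine 1-phosphate, was 37.2 CPM in endothelial-like and 21.9 CPM in tumour-like epithelial cells.

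The share of naive cells, which would move the level of Ccr7 in a whole T cell class, was compared over tumours. Naive CD4 T-like cells made up 50.3 ± 4.46% of the naive and activated CD4 T-like cells in Con and 51.7 ± 6.45% in mA1 tumours (n = 4 each, exact permutation p = 0.771, two-sided; adjusted over both lineages, p = 1). In CD8 T-like cells it was 48.4 ± 8.96% in Con and 48.2 ± 3.42% in mA1 (exact permutation p = 1). Con 1-1, with 27 naive and 50 effector-memory cells, was the lowest CD8 value at 35.1%, and the other Con values were 51.5 to 54.0%. The permutation took the tumours as separate, though tumours of 1 library share its preparation. For CD4 the shares were 50.7 and 56.4% in Con library 1 and 46.4 and 47.7% in Con library 2. They were 57.6 and 56.6% in mA1 library 1 and 44.1 and 48.7% in mA1 library 2.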

How the data were processed

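Raw UMI counts per gene and cell, with hashtag counts, were deposited as 1 matrix a library; they were made with Cell Ranger 6.0.1 on mm10, per the submitters' processing notes. The members and gene lists were chosen with earlier results of these data known. The named genes were the 7 members, partner genes past the threshold or among the 3 highest of their list in a class, and the 3 genes most like each member, of which 1 is not reported here. Some further genes (Spns2, S1pr5, Cxcl12, Cxcl13 and Cdh1) were named for their role after their values were seen.

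Barcodes with at least 500 UMIs, 250 genes and at most 15% mitochondrial UMIs were kept. Hashtags were called with a 2-component mixture, and cells with both tags or marked by Scrublet were removed. Scrublet marked 0 of 5808 cells in Con library 2 and was taken as not having worked there. Cells were clustered with scanpy 1.11.5 (2000 variable genes, 30 components, 15 neighbours, Leiden resolution 1). UMIs were summed per class and tumour, or per library where a tumour had under 20 cells, and tested with edgeR's quasi-likelihood test (TMM, filterByExpr) with Benjamini-Hochberg adjustment over all genes tested. Tests of single values were exact permutations. On data simulated for NK-like cells (5572 genes), edgeR called 43.7% of genes changed 2-fold and 98.8% of those changed 4-fold, so smaller changes can be missed at this depth. These shares hold for NK-like cells (1817 cells) only. Smaller classes, such as T cell cluster 2 (494 cells), and fits over libraries were not simulated. Alternatives were DESeq2, no TMM, no low count filter, library sums, a library block, hashtag calls by share, a stricter mitochondrial limit, other clusterings and pseudocounts, each library or tumour left out, and, chosen after the data were seen, cells with shared barcodes left out and cells thinned to 1000 UMIs. The endothelial-like class was also named after the data were seen.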

Additional observations from a re-analysis of the deposited data

Results flagged for a closer look

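In 5 of 72 groups of 4 tumours, 1 tumour lay apart from the other 3 by more than Dixon's 95% limit for its gene and class; chance alone gives about 1 in 20. S1pr1 in naive CD4 T-like cells was 486.5 CPM in mA1 2-1, above the 352 to 371 CPM of the other mA1 tumours. In activated CD4 T-like cells of Con 1-1, S1pr1 was 131.5 CPM against 218 to 228 CPM and Klf2 was 427.2 CPM against 719 to 753 CPM in the other Con tumours. Cxcr4 in NK-like cells was 19.26 CPM in mA1 1-1 against 44.1 to 48.2 CPM in the other mA1 tumours. Cd69 in naive CD8 T-like cells was 410.2 CPM in Con 2-1 against 237 to 262 CPM in the other Con tumours.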

How the results depend on the processing

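The number of member and class pairs past the adjusted threshold was 0 in the reported fit. It was 1 with hashtags called at 80% of hashtag counts, 4 with no filter beyond 1 UMI, and 0 to 8 when 1 library or tumour was left out; the 8 came without Con library 1 (Ccr7 and Cxcr4 in cDC2-like, Cd69 in naive CD4 T-like and mature migratory DC-like, Cxcr4 in effector-memory CD8 T-like, Itgae in activated CD4 T-like cells, and Itgae and Klf2 in T cell cluster 2). It stayed 0 with DESeq2, without TMM, over libraries, with the 10% mitochondrial limit, with the members kept among the variable genes, at resolution 1.5 and without cells whose barcode is in 2 libraries, an alternative added after the data were seen. Library numbers are not stated to pair the groups, and same-numbered libraries deviated with correlations from -0.304 to -0.0441; with the library number as a replicate block the count was 1, Cxcr4 in B cell-like cells. That gene was called there in 4 of 22 alternatives, with log2 fold changes from -1.14 (without mA1 library 1, adjusted p = 8.4e-05) to -0.32 and adjusted p up to 1.00. Cxcr4 stayed below 0 in all 22 alternatives in each of the 7 classes fitted over tumours. In T cell cluster 2, Itgae (0.52 to 1.55) was called in 4 and Klf2 (0.58 to 0.82) in 3 of 22 alternatives, both of them without Con library 1. A sign was read as reversed only where the reported value exceeded its standard error. When 1 library or tumour was left out, such values ran from -0.12 to 0.34 for Cd69 in B cell-like, -0.72 to 0.060 for Cd69 in NK-like, -0.59 to 0.12 for Klf2 in T cell cluster 13 and -0.061 to 0.88 for S1pr1 in T cell cluster 2, with the reversed sign without mA1 library 1. They ran from -0.43 to 0.049 for Cd69 in effector-memory CD8, -0.47 to 0.13 for Cd69 in naive CD4 and -0.11 to 2.17 for Itgae in activated CD4 T-like cells, with the reversed sign without Con library 2; the cause was not tested. A lone library in a group was assumed to vary like the others. Without Con library 1 that lone library was Con library 2, which stood apart in Xist. In that setting a group difference cannot be told apart from what sets Con library 2 apart. Neighbour pairs and class differences passing stayed at 0 with a pseudocount of 1. The first class of each member was the same with that pseudocount, with the members kept and over libraries with at least 20 cells. That limit leaves mA1 library 2 out of ILC2-like cells (18 cells) and regulatory T-like cells (19 cells). Over all 4 libraries the mean of Cd69 was higher in regulatory T-like cells, at 697 CPM, than in ILC2-like cells, at 624 CPM. The first place of ILC2-like cells for Cd69 thus depended on the limit. Differences in naive shares ran from -3.88 to 6.77 percentage points for CD4 and from -4.53 to 4.12 for CD8 without 1 library.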
